A study of Homo sapiens with 2 samples.

Results

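The feedback gene SOCS3 and the acute-phase genes CRP, SAA1, SAA2, SAA4, HP, ORM1, ORM2, HAMP and LBP were followed in Huh7 cells. The cells were compared with and without knockdown of PPIL1, a cyclophilin of the spliceosome. The 10 genes were taken by name from the count table, and all 10 were found among its 19927 gene rows. They were named by function and not by a threshold on their values. Huh7 is an established human hepatocellular carcinoma line. Polyadenylated RNA was sequenced from 1 culture with a control hairpin (shControl, labelled WT) and from 1 culture with a hairpin against PPIL1 (shPPIL1, titled shPPIL1#1). Both cultures grew in DMEM with fetal bovine serum, and the labels name no cytokine or other agent. For the vector, the time after knockdown and any selection, the sources used here give nothing. With 1 library and 1 hairpin per group, hairpin, culture and library cannot be told apart, no test between the conditions was possible, and every difference below lies between these 2 libraries.

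In hepatocytes, interleukin-6 binds its receptor IL6R and the shared chain IL6ST (gp130), which switches on JAK kinases and the transcription factor STAT3. STAT3, together with C/EBP factors and with NF-kappaB downstream of interleukin-1, raises the secretion of acute-phase proteins into plasma. SOCS3 is itself a STAT3 target. Its product binds gp130 and JAK and shuts the signal down, so its transcript is widely read as a marker of ongoing gp130 signalling.

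Several of these genes have a near-identical neighbour. This bears on the counts of SAA1, SAA2, ORM1, ORM2 and HP, since a read from sequence common to both copies matches more than 1 place. Of 100-base windows taken every 10 bases along the longest coding transcript (GENCODE release 29), 17.3% for SAA1, 36.2% for SAA2, 33.8% for ORM1, 37.3% for ORM2 and 12.9% for HP were found unchanged in a transcript of another gene. The SAA4 transcript shared 60.3% of its windows, all with the read-through gene SAA2-SAA4. That gene overlaps SAA4 and SAA2 on chromosome 11, so windows shared with it alone reflect overlapping annotation and not a second copy. Of the 17 shared windows of SAA2, all were found in SAA2-SAA4 and 9 also in SAA1. No window of SOCS3, CRP, HAMP or LBP was shared. The coding sequences of SAA1 and SAA2 were 97.0% identical over 366 bases, those of ORM1 and ORM2 94.9% over 603 bases, and those of HP and HPR, the haptoglobin-related gene next to it, 95.6% over 1041 aligned bases. SAA1 and SAA4 were only 73.5% identical. The stretches printed here are the 60 coding bases, 5′ to 3′, in which each pair differs most where aligned without a gap. Differing bases are in capitals. They are shown because, within aligned coding sequence, only a read that covers a differing position can be assigned to 1 copy. The alignment of HP and HPR also held 288 gap columns, as their coding sequences are 1326 and 1044 bases long. Gaps and untranslated ends were left out of the choice of these stretches.
SAA1: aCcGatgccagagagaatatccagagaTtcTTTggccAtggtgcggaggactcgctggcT
SAA2: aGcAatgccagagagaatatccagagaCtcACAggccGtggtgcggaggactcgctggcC
ORM1: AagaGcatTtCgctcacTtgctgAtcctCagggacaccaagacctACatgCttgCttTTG
ORM2: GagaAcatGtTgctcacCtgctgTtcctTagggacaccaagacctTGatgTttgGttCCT
HP: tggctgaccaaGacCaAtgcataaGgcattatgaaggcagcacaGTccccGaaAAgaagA
HPR: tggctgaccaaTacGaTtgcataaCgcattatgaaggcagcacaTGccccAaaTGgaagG

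The SAA1 and SAA2 stretches are coding bases 229 to 288 and differ at 8 positions. They run from exon 3 into exon 4 of 4, at chr11:18269332-18269774 on the plus strand and chr11:18245458-18245911 on the minus strand (GRCh38, intron included). The ORM1 and ORM2 stretches differ at 14 positions and lie in exon 4 of 6, at chr9:114324799-114324858 and chr9:114331576-114331635, both on the plus strand. The HP and HPR stretches differ at 10 positions and lie in the last exon of each gene, at chr16:72060577-72060636 and chr16:72076768-72076827, also on the plus strand. Outside such positions the copies can be identical for long runs, up to 186 bases for SAA1 and SAA2, 206 for ORM1 and ORM2 and 175 for HP and HPR.

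Depth was near equal, with 41015345 counted reads in shControl and 41165401 in shPPIL1. PPIL1 itself checked the labels, with 1505 reads in shControl and 104 in shPPIL1, or 6.79% of the control level (95% counting interval 5.51 to 8.29%). The cells carried the hepatocyte markers they should: 8 of 8 were expressed, with a summed level of 10318 FPKM (the authors' read count scaled by gene length and library total) in shControl and 10637 in shPPIL1. Of these sums, AFP alone made up 4564 and 4612 FPKM. Of 7 leukocyte markers only CD68 and LYZ passed 1 CPM (count per 1000000 scaled reads, about 41 reads) in either library, MPO and CD163 had 0 reads in both, and PTPRC had 4 and 10. The summed leukocyte level was 243 FPKM in shControl and 199.5 in shPPIL1, of which LYZ, lysozyme, made up 223 and 181. Of 5 fibroblast, 4 endothelial and 4 cholangiocyte markers, 2, 1 and 3 passed, with summed levels of 15.6 and 15.8, 1.58 and 1.34, and 499 and 500.2 FPKM. Both cultures are of the 1 line Huh7, and which of its cells carried these other markers was not tested. In bulk RNA, fewer cells carrying a marker and less of its RNA per cell cannot be told apart. The part of these other markers in the differences below was not tested.

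These 10 genes, and not the acute-phase program as a whole, stood at a low level in both cultures. The 24 listed genes for other positive acute-phase proteins summed to 1332 FPKM in shControl and 1487 in shPPIL1. The 10 genes together took 744 reads in shControl and 904 in shPPIL1, or 18.1 and 22.0 per 1000000 counted reads. The difference between these sums lay in SOCS3, since the other 9 genes together held 425 and 413 reads. Within those 9, opposite differences offset each other: ORM1 had 273 and 216 reads, and HP 39 and 68. Per length, the order in shControl was ORM1 (8.71 FPKM), SOCS3 (3.05), SAA1 (1.95), SAA2 (1.04), HP (0.672), HAMP (0.420), CRP (0.0863), ORM2 (0.0642), LBP (0.0534) and SAA4 (0 reads). Counting intervals separated ORM1, SOCS3, SAA1 and SAA2 from one another, whereas from SAA2 downward each gene overlapped the next. SAA1 and SAA2 had 47 and 48 reads, so their separation rests on the implied row lengths of 587 and 1127 bases. A counting interval does not cover that choice of length. In shPPIL1 the order was ORM1 (6.87 FPKM), SOCS3 (4.68), SAA1 (2.61), HP (1.17), SAA2 (1.16), SAA4 (0.154), HAMP (0.120), ORM2 (0.0640), LBP (0.0532) and CRP (0 reads). There the intervals of HP and SAA2 overlapped, SAA2 lay above SAA4, and from SAA4 downward each gene overlapped the next. For comparison, albumin (ALB) stood at 3203 FPKM in shControl and 3270 in shPPIL1.

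**Figure D1:**
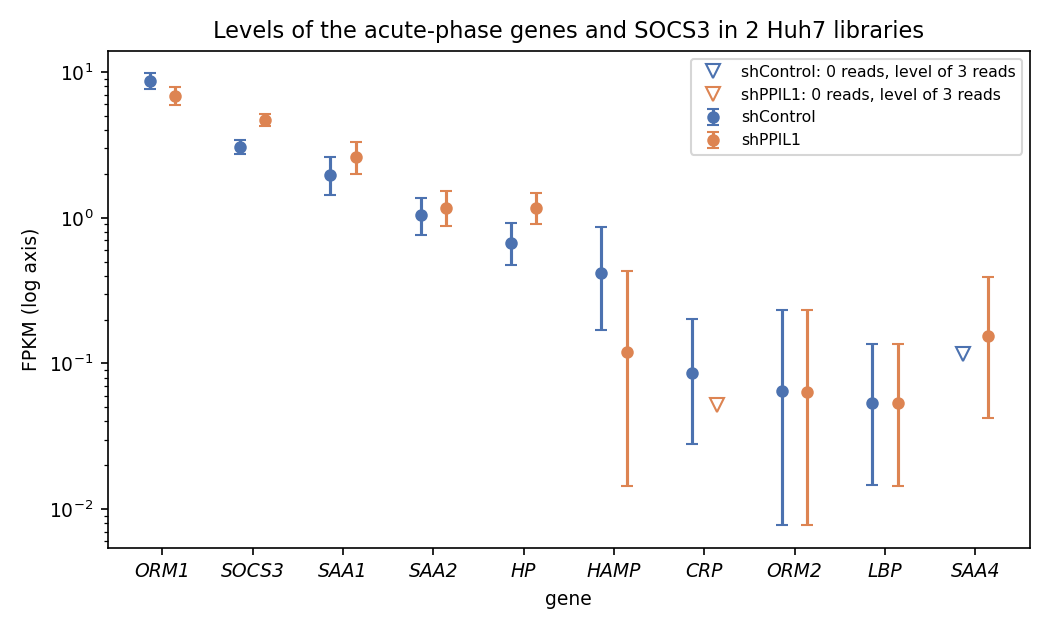
FPKM on a log axis for the 10 genes in shControl (blue) and shPPIL1 (orange), with exact Poisson 95% intervals of the counts; open triangles mark libraries with 0 reads, drawn at the level that 3 reads would give. ORM1 and SOCS3 stand highest in both libraries, and the intervals of both libraries are separate for SOCS3 only.

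Genes with 1 CPM or more in either library were kept for comparison. These were 5 of the 10: SOCS3, SAA1, SAA2, HP and ORM1. HP passed only through shPPIL1, as it held 0.958 CPM in shControl. No kept gene of the 10 reached a 2-fold ratio with an interval excluding 1, against 0.526% of all 12540 kept genes that were called higher and 0.518% called lower by this rule. At 1.5-fold, SOCS3 and HP were called higher and none lower, against backgrounds of 2.02% and 2.22%. By the interval alone, SOCS3 and HP were higher and ORM1 lower, against 24.6% and 26.4% of all kept genes. These intervals take every counted read as independent and are too narrow if reads are not. HP (lower bound 1.14) and ORM1 (upper bound 0.933) lie nearer to 1 than SOCS3 (lower bound 1.31). The background depends on depth. Among 10730 genes with at least 5 CPM in either library, as SOCS3 has, 0.615% were 1.5-fold higher. Among 1810 genes whose larger value lay from 1 to under 5 CPM, as for HP, 10.3% were. Since HP entered this set only through the library in which it was higher, the filter favoured that side of its call.

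SOCS3, the feedback inhibitor, had 319 reads (3.05 FPKM) in shControl and 491 reads (4.68 FPKM) in shPPIL1. The knockdown library was the higher one, and the counting intervals of the levels, 2.73 to 3.41 and 4.28 to 5.12 FPKM, did not overlap. The ratio was 1.51 (1.31 to 1.75). Its level lay above that of 53.0% of all gene rows in shControl and 57.7% in shPPIL1. SOCS3 is at chr17:78356778-78360925 (GRCh38.p14), and none of its transcript windows is shared with another gene.

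The other members of the SOCS family lay on both sides of equal expression. All 7 other members were kept: 2 were higher with an interval excluding 1, 1 was lower and 4 had an interval including 1. Of all kept genes, 24.6% were higher and 26.4% lower by this interval. The median log2 ratio of the 7 was 0.05 against -0.00 over all kept genes. SOCS1, which like SOCS3 can inhibit JAK kinases directly, had 148 reads (2.91 FPKM) in shControl and 227 (4.45 FPKM) in shPPIL1, a ratio of 1.51 (1.22 to 1.87). It was the only family member besides SOCS3 past 1.5-fold. SOCS6 had a ratio of 1.11 (1.01 to 1.21) and SOCS4 0.881 (0.832 to 0.933). CISH and SOCS2, which are known as STAT5 targets, had 54 and 71 reads and 94 and 99 reads, with ratios of 1.29 (0.894 to 1.88) and 1.03 (0.772 to 1.39). SOCS5 (1.02, 0.926 to 1.12) and SOCS7 (0.956, 0.878 to 1.04) differed by less than counting error. SOCS1 was also among the 3 genes whose ratio was nearest to that of SOCS3, out of 1689 kept genes with a control FPKM within 1.5-fold of SOCS3 and 1 CPM in both libraries. The other two were ZNF627, a zinc finger gene (1.51), and SULT1C4, a sulfotransferase (1.51). With 2 libraries this likeness is a match of a single ratio.

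**Figure D2:**
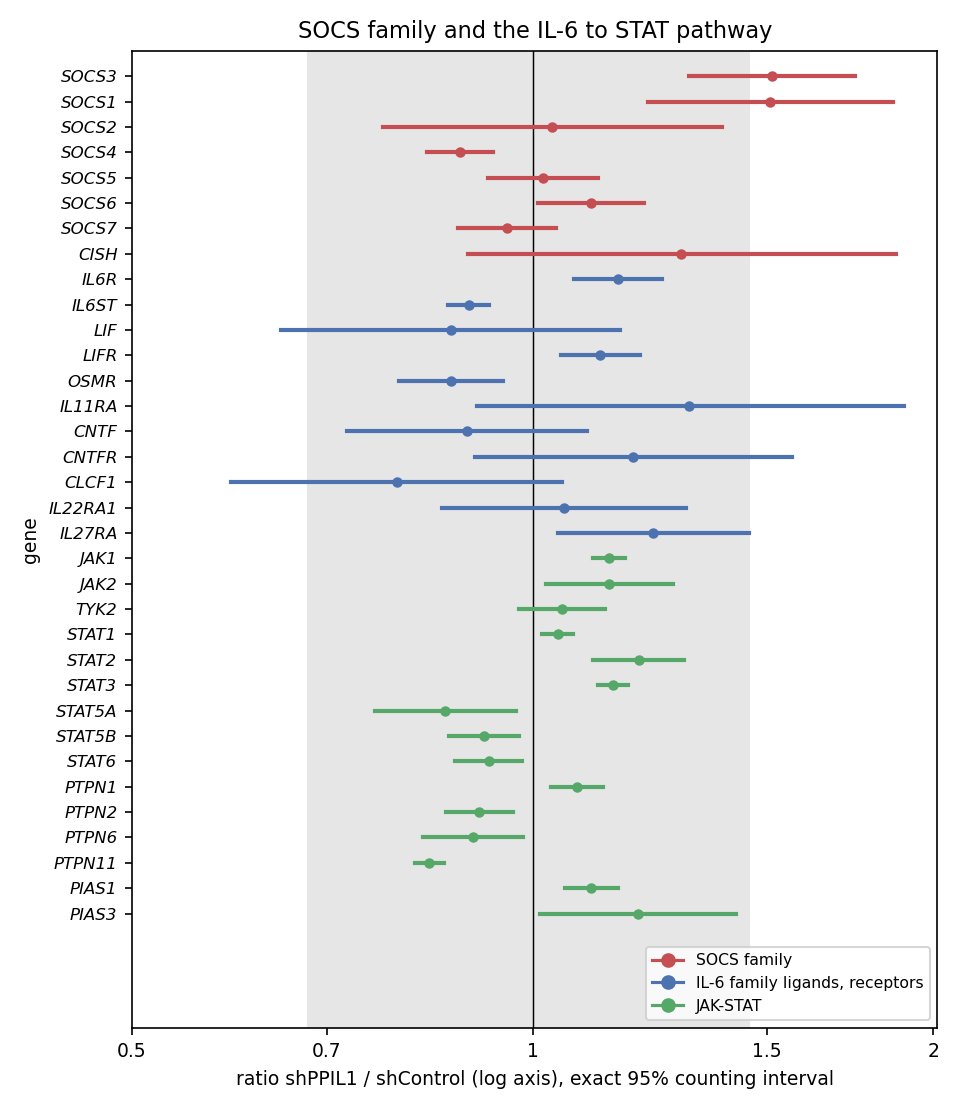
Ratio of shPPIL1 to shControl on a log axis with exact 95% counting intervals for the kept SOCS family members (red), IL-6 family ligands and receptors (blue) and JAK-STAT genes (green); the grey band holds the central 95% of all kept genes. SOCS3 and SOCS1 lie to the right of the band at 1.51, and the other genes have ratios inside it.

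The kept genes upstream of SOCS3 showed smaller ratios in both directions. No reads fell on the ligands IL6, OSM or IL22 in either library, a count that allows up to 3 reads each (one-sided 95% limit), while LIF had 103 and 91 reads. Of 17 ligands and receptors, 11 were kept. Of the kept genes 3 were higher and 2 lower with an interval excluding 1, and 0 reached 1.5-fold, with a median log2 ratio of 0.08. Below the filter, the ligand CTF1 had 17 and 37 reads, a ratio of 2.14 (1.17 to 4.05), larger than that of SOCS3. IL11 (10 and 7 reads) and IL10RB (11 and 13) were also not kept, and their intervals included 1. IL6R was at 6.41 FPKM in shControl and 7.53 in shPPIL1 (ratio 1.16, 1.07 to 1.25), whereas its partner IL6ST was at 17.8 and 16.2 FPKM (0.895, 0.864 to 0.927). LIFR (1.12, 1.05 to 1.20) and IL27RA (1.23, 1.04 to 1.45) were on the higher side and OSMR (0.868, 0.794 to 0.950) on the lower. Chains that pair with gp130 thus fell on both sides of equal expression. For IL11RA (1.31, 0.908 to 1.90), CNTFR (1.19, 0.905 to 1.57) and IL22RA1 (1.06, 0.855 to 1.30) the interval included 1. Among the 15 JAK-STAT genes, all kept, 8 were higher, 6 lower and 0 past 1.5-fold, with a median of 0.07. By the same interval 24.6% of all kept genes were higher and 26.4% lower, and deeply counted genes pass it at small ratios. STAT3 had 10984 and 12842 reads, or 57.6 and 67.1 FPKM, a ratio of 1.15 (1.12 to 1.18). JAK1 (1.14, 1.11 to 1.17), JAK2 (1.14, 1.02 to 1.27) and STAT2 (1.20, 1.11 to 1.30) were also higher. PTPN11, the phosphatase SHP2 that binds gp130 at the site SOCS3 uses, was at 61.1 and 51.8 FPKM (0.836, 0.815 to 0.858). The phosphatase PTPN2 (0.912, 0.860 to 0.967) and STAT5A (0.860, 0.761 to 0.971) were lower as well.

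Other STAT3 targets lay on both sides of equal expression. Of 14 listed targets 13 were kept, 3 were higher like SOCS3 and 5 lower with an interval excluding 1, and 0 passed 1.5-fold in either direction. Over all kept genes 24.6% were higher and 26.4% lower by that interval. Their median log2 ratio was -0.07. PIM2, a survival kinase, had 2680 and 3831 reads (ratio 1.40, 1.34 to 1.48), while its relative PIM3 had 2826 and 2066 (0.718, 0.678 to 0.760). The interferon regulatory factor IRF1 (1.18, 1.13 to 1.23) and CEBPD (1.14, 1.10 to 1.18) were higher, and the AP-1 subunit JUNB (0.778, 0.709 to 0.854) and CEBPB (0.890, 0.844 to 0.938) lower. CEBPD and CEBPB both encode C/EBP factors that act on acute-phase promoters, and they differed in opposite directions.

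Serum amyloid A is the apolipoprotein family that is among the most steeply induced in an acute phase, with SAA1 and SAA2 as the inducible members and SAA4 as the constitutive one. SAA1 had 47 reads (1.95 FPKM) in shControl and 63 (2.61 FPKM) in shPPIL1, a ratio of 1.32 (0.888 to 1.96). SAA2 had 48 reads (1.04 FPKM) and 54 (1.16 FPKM), a ratio of 1.11 (0.735 to 1.67). Both were nominally higher in shPPIL1 with intervals including 1, so no difference was detectable at this depth. The authors' FPKM place SAA1 above SAA2 at nearly equal reads because the implied row length is 587 bases for SAA1 and 1127 for SAA2. Summed, the pair had 95 and 117 reads, a ratio of 1.21 (0.915 to 1.60). SAA1 took 49.5% of the pair's reads in shControl (exact 95% interval 39.1 to 59.9%) and 53.8% in shPPIL1 (44.4 to 63.1%), and these intervals overlapped. SAA4 had 0 reads in shControl, where 3 reads would be 0.116 FPKM, and 4 reads in shPPIL1. Its ratio has no upper bound and a lower bound of 0.649. The read-through row SAA2-SAA4 had 0 reads in both libraries. The 3 genes lie together on chromosome 11, SAA4 at 18231355-18236802, SAA2 at 18238236-18248668 and SAA1 at 18266264-18269967 (GRCh38.p14).

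Orosomucoid, or alpha-1-acid glycoprotein, is a lipocalin carrier of basic drugs in plasma and is made from ORM1 and ORM2. ORM1 was the most abundant of the 10 genes, with 273 reads (8.71 FPKM) in shControl and 216 (6.87 FPKM) in shPPIL1. It went the opposite way to SOCS3, with a ratio of 0.777 (0.647 to 0.933), although the level intervals of the libraries, 7.71 to 9.81 and 5.98 to 7.85 FPKM, overlapped. ORM2 had 2 reads in each library. ORM1 thus held 99.3% of the pair's reads in shControl (97.4 to 99.9%) and 99.1% in shPPIL1 (96.7 to 99.9%), and the ratio of the summed pair was 0.779 (0.649 to 0.934). The neighbours lie at chr9:114323098-114326479 and chr9:114329869-114333251 (GRCh38.p14).

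Haptoglobin, the plasma protein that captures free hemoglobin, had a ratio above 1 that rests on few reads and changed when its copy was counted in. HP had 39 reads (0.672 FPKM) in shControl and 68 (1.17 FPKM) in shPPIL1, a ratio of 1.71 (1.14 to 2.61). This interval holds that of SOCS3. HPR, the haptoglobin-related gene just downstream, whose product belongs to a trypanosome-killing lipoprotein particle, had 19 reads in shControl and 2 in shPPIL1, a ratio of 0.103 (0.0117 to 0.429). HP was therefore higher and HPR lower in the knockdown library. HP held 67.2% of the pair's reads in shControl (53.7 to 79.0%) and 97.1% in shPPIL1 (90.1 to 99.7%), and these intervals did not overlap. The sum of both was 58 and 70 reads, a ratio of 1.19 (0.825 to 1.71), with no difference detectable. The sources used here do not say how reads that match both genes were assigned. Of the HPR transcript windows 22.6% were also found in HP, and the part of shared reads in the opposite ratios was not tested.

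**Figure D3:**
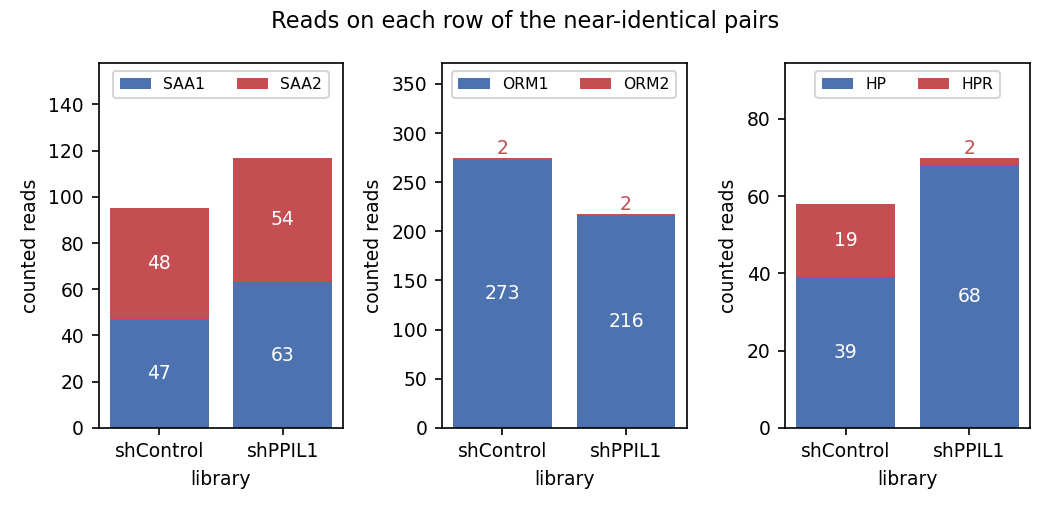
Counted reads on each row of 3 near-identical pairs in shControl and shPPIL1 (stacked bars, reads written in or above each part). The intervals of the split overlap between the libraries for SAA1 with SAA2 and ORM1 with ORM2, whereas HPR has 19 and 2 reads where HP has 39 and 68.

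The remaining members were close to silent. C-reactive protein, CRP, the pentraxin used as a clinical marker of inflammation, had 5 reads in shControl and 0 in shPPIL1, where 3 reads would be 0.0516 FPKM. The upper bound of its ratio was 1.07, so the interval included equal expression. LBP, which carries bacterial lipopolysaccharide to CD14, had 4 reads in each library (ratio 0.982, 0.183 to 5.27). Of its listed partners, CD14 was kept, with 76 and 96 reads (1.24, 0.909 to 1.70), while LY96 had 1 and 0 and TLR4 and BPI 0 in both. HAMP, which encodes the iron hormone hepcidin that closes the iron exporter ferroportin, had 7 reads (0.420 FPKM) in shControl and 2 (0.120 FPKM) in shPPIL1. The ratio of 0.281 had an interval of 0.0285 to 1.47, and no difference was detectable at this depth.

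**Figure D4:**
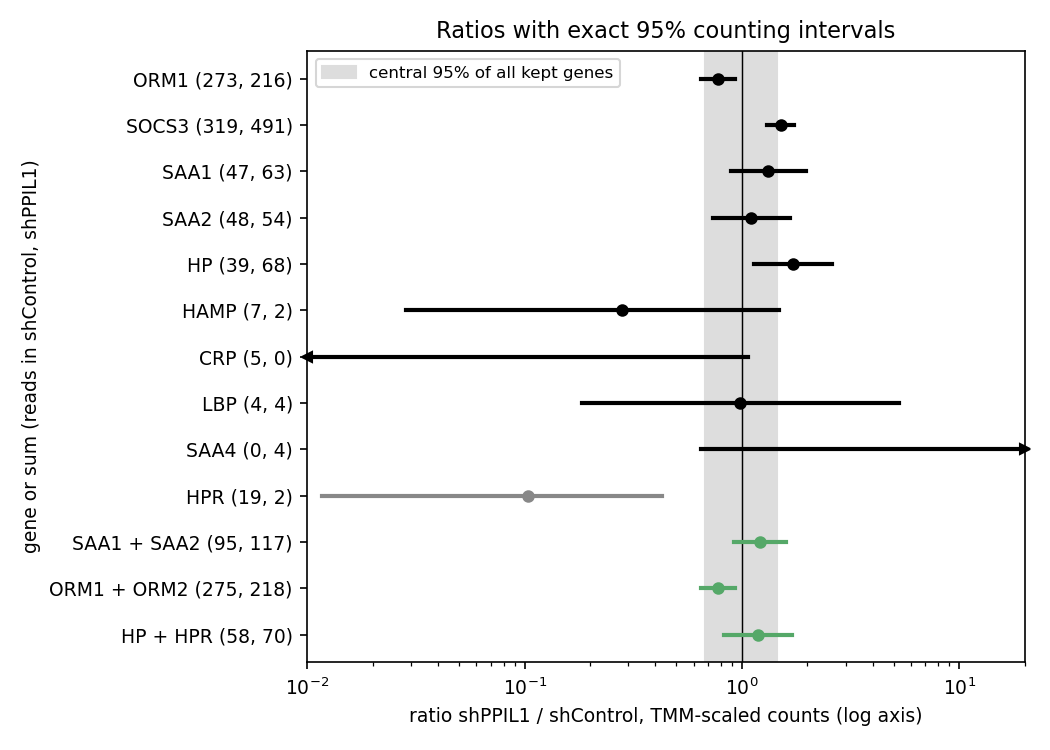
Ratio of shPPIL1 to shControl (log axis) with exact 95% counting intervals for 9 of the 10 genes and HPR, and for the summed pairs (green); reads in shControl and shPPIL1 stand beside each name, arrows mark intervals without a bound, and the grey band holds the central 95% of all kept genes. ORM2, with 2 reads in each library, is left out; SOCS3 and HP lie above 1, ORM1 below, and the sum of HP with HPR includes 1.

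RefSeq promoter windows (GRCh38.p14), 250 bases before to 50 after a start, were used for 4 of the 10 genes (CRP, ORM1, SAA4 and SOCS3), with 2 starts for SOCS3. On both strands, TTGCNNAA (C/EBP) was found at 3 places in SAA4 and in 10.5% of 35116 windows. TTCNNNGAA (STAT, 7.66% of windows) and GGGNNTTNC (NF-kappaB, 16.2%) were in none of the 5 windows of these genes. Neither SOCS3 window reaches the bases before the start of its GENCODE transcript used above, and those bases were not searched. These are matches of letters and not measured sites. Over the series, the 900 kept genes with TTCNNNGAA in a promoter window had a median log2 ratio of -0.01, and the 9373 without it -0.00.

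The genes that feed the BMP branch to hepcidin were mostly expressed although HAMP was close to silent. Of 24 listed genes 20 were kept, 7 were higher and 5 lower with an interval excluding 1, and the median log2 ratio was 0.07. Shares over all kept genes were 24.6% higher and 26.4% lower. ID1, the classical BMP target, stood at 440 and 429 FPKM (ratio 0.961, 0.942 to 0.980). BMP4, a BMP ligand, was the only kept gene of the list past 1.5-fold and also past 2-fold, with 460 reads in shControl and 229 in shPPIL1 (0.489, 0.416 to 0.574). BMP6, the ligand that iron induces in liver, had 5 and 2 reads. SMAD1 (1.25, 1.17 to 1.34), the co-receptor NEO1 (1.24, 1.15 to 1.33) and SLC40A1, ferroportin itself (1.25, 1.20 to 1.31), were higher. SMAD4 (0.917, 0.878 to 0.958) and TFRC, the transferrin receptor (0.950, 0.936 to 0.963), were lower. The hepcidin co-receptor gene HJV had 11 and 6 reads, and TFR2 29 and 35.

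On the interleukin-1 side, 15 of 20 genes were kept, with 7 higher, 3 lower and 0 past 1.5-fold, and a median log2 ratio of 0.07. The receptor chain IL1RAP had 1420 and 1867 reads (ratio 1.29, 1.20 to 1.39), and NFKBIZ, a cofactor of NF-kappaB, 15648 and 18293 (1.15, 1.12 to 1.17). TRAF6 (1.21, 1.10 to 1.32) was higher, and TNFRSF1A (0.856, 0.813 to 0.900), IRAK1 (0.897, 0.855 to 0.942) and IRAK4 (0.895, 0.814 to 0.984) were lower. Of 10 liver transcription factors counted, 7 were higher and 2 lower by the interval alone (median 0.13, 0 past 1.5-fold). Beside both lists, the shares over all kept genes were 24.6% higher and 26.4% lower. Deeply counted genes pass this interval at small ratios. FOXA1 (1.17, 1.12 to 1.22) and CEBPA (1.09, 1.07 to 1.11) were higher, and CEBPG (0.902, 0.870 to 0.934) lower. CEBPB and CEBPD belong to this list and to that of STAT3 targets.

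Of 24 genes for other positive acute-phase proteins 16 were kept. By the interval alone 9 were higher and 2 lower, where 24.6% and 26.4% of all kept genes were, and the median log2 ratio was 0.11 against -0.00. Deeply counted genes pass this interval at small ratios, as C3 did with 35073 and 38427 reads (1.08, 1.06 to 1.09). Complement factor B, CFB, had 972 and 1417 reads (ratio 1.43, 1.32 to 1.56). The fibrinogen chains FGA, FGB and FGG had ratios of 1.28 (1.24 to 1.32), 1.18 (1.16 to 1.19) and 1.17 (1.15 to 1.20). Ceruloplasmin, CP, the copper ferroxidase, went the other way, from 20.9 FPKM in shControl to 13.7 in shPPIL1 (0.645, 0.613 to 0.680). It was the only kept gene of the list past 1.5-fold. HPR, given above, also belongs to this list but was not kept. MBL2, mannose-binding lectin, was also lower (0.813, 0.704 to 0.939). Negative acute-phase proteins, whose plasma level drops in inflammation, had 9 of 10 genes kept, 4 higher and 2 lower, with a median of 0.04. APOA2 (1.11, 1.07 to 1.14), APOA1 (1.08, 1.07 to 1.09) and SERPINA6 (1.09, 1.03 to 1.15) were higher, and AHSG (0.851, 0.795 to 0.912) and TF, transferrin (0.929, 0.918 to 0.940), lower.

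**Figure D5:**
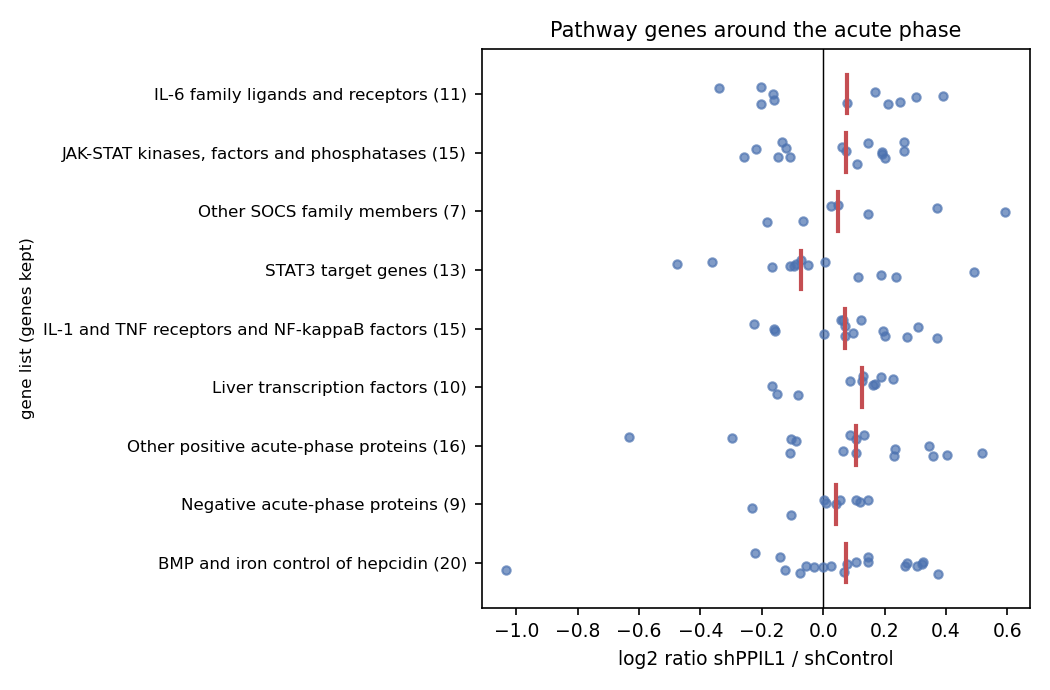
Log2 ratio of shPPIL1 to shControl for each kept gene (points, spread vertically at random) of 9 pathway lists, with the list median (red bar) and the number of genes kept in parentheses. All 9 medians lie between -0.07 and 0.13, and BMP4 (-1.03) and CP (-0.63) stand farthest to the left.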

How the data were processed

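Polyadenylated RNA of 2 Huh7 libraries, 1 per group, was sequenced. The authors deposited raw counts per gene and FPKM values per gene and library. Per the submitters' processing notes the build is hg38. Aligner, counter, annotation, strand setting and the treatment of reads with several matches: not given in the sources used here. Columns were tied to libraries by the names in the labels, and 7 further columns of counts were not used. The deposited FPKM imply a whole gene length, within 0.01 bases.

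Counts were scaled with TMM factors of edgeR 4.0.16 (R 4.3.3). Ratios carry exact Clopper-Pearson 95% intervals on the gene's reads and levels exact Poisson 95% intervals (SciPy 1.17.1). Both cover counting error only and take every counted read as independent. PCR copies are not independent molecules, nor are 2 reads of 1 fragment. Even counts were common among genes with few reads, such as 0 and 8 for GATA1 and 20 and 0 for YY2. Odd ones also occurred, such as 0 and 5 for VCX2. Whether both reads of a pair were counted is not given in the sources used here. If they were, the intervals are too narrow. Genes with at least 1 CPM in 1 library were kept. A gene was called at 2-fold or 1.5-fold with an interval excluding 1. The steps were run on simulated libraries with known changes, drawn as independent reads. That run checks the calculation. It cannot show whether the reads counted here are independent or how far 2 cultures differ. Alternatives were library totals, DESeq2 1.42.0 size factors, other filters, log2(FPKM + 1) and log2(FPKM + 0.1), and summed pairs. Coding sequences were aligned with Biopython 1.88.

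The members and lists were chosen with earlier results of these data known. Named were all members, PPIL1, the kept SOCS family, IL-6 receptors, STAT3, JAK1 and JAK2, up to 3 genes per list and direction by the interval bound nearest to 1, and the 3 genes nearest to SOCS3 in ratio. Genes named for their low counts (such as IL6, BMP6, HJV, TFR2, CD14), ALB, C3, CTF1, ID1, LIF and FGG were added after their values were seen. Some listed genes and promoter sequence are not reported here.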

Additional observations from a re-analysis of the deposited data

How the results depend on the processing

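With 1 library per group there was no replicate to leave out. No paired analysis was possible because each group holds 1 library. No kept member was called at 2-fold with any scaling or filter tried, or with the pairs summed, and 2 were called at 1.5-fold (SOCS3 and HP). Alternatives to the count at 1.5-fold were all added after the data were seen. It was 1 at 5 CPM or more, which leaves 2 members, 1 with HP summed with HPR, and 2 with library totals or DESeq2 size factors. SOCS3 and HP fell under 1.5-fold with log2(FPKM + 1), which understates the change of low genes: SOCS3 from a log2 ratio of 0.60 to 0.49 and HP from 0.78 to 0.37, so that SOCS3 was then the larger. Scaling by library totals raised every log2 ratio by 0.02. The 9 members other than ORM2, which was not run, stayed within their counting intervals under the scalings and pseudocounts, and the 3 summed pairs under the scalings. Depth limits all members but SOCS3 and ORM1, and for ORM1 the upper bound of 0.933 lies near 1.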
